A study of Marmota monax with 203 samples.

Results

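The liver response to wIFN-α (recombinant woodchuck interferon-α) was compared between the first low dose and the repeated low dose in 21 woodchucks (Marmota monax) that carried woodchuck hepatitis virus (WHV). The biopsies were those of the earliest on-treatment time point, week 0 (label week 1), and of week 3 (label week 4), from every animal that had both, with animal 1004 left out. The study set that animal aside because it appeared to be clearing the virus on its own. This gave 42 biopsies of the 164 in the series, sequenced in 49 of its 203 runs.

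The treated group was 9 animals (4 males and 5 females) given 20 μg of wIFN-α under the skin on Mondays, Wednesdays and Fridays, and the control group was 12 animals (6 males and 6 females) given placebo on the same days. Both biopsies were taken 6 hours after a dose, at week 0 after the very first one and at week 3 after several. All 21 animals shared the same background: adults born in captivity, infected as newborns with WHV strain WHV7-11, with an established chronic infection. The same animals were biopsied at both weeks, so each animal was its own reference, and the question was whether the difference between wIFN-α and placebo at week 3 differed from that at week 0. The value for each gene is therefore a difference of differences on the log2 scale: the wIFN-α effect at week 3 minus the wIFN-α effect at week 0. A negative value means that a gene raised by the first dose was raised less by the repeated dose, or that the effect moved downwards, and a positive value means the opposite.

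Interferon-α binds the receptor chains IFNAR1 and IFNAR2, and the attached kinases JAK1 and TYK2 pass the signal on to a complex that contains STAT2 and IRF9 and switches on interferon-stimulated genes (ISGs). Cells limit this signal through inhibitors that are themselves induced, among them USP18, which acts at the receptor, and the SOCS proteins, which act on the kinases. A cell that has met interferon once can therefore answer a later dose differently, and parts of the response can wane at unequal rates.

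Reads assigned to genes ranged from 12962032 to 79459361 per biopsy, and gene levels are given as CPM, counts scaled to a common library size. CPM is not corrected for gene length, so levels are compared between animals for 1 gene and not between genes. Hepatocyte markers were at a similar level in all groups, with median scores, the mean log2(CPM + 1) of 12 markers, of 11.47 and 11.31 in treated animals at weeks 0 and 3 and of 11.27 and 11.42 in placebo animals. Reads of 20 skeletal muscle genes varied widely. Their share of the reads had a median of 0.0439% and 0.0526% in treated animals at weeks 0 and 3 and 0.0912% and 0.838% in placebo animals and was over 1% in 2 of 9 treated and 6 of 12 placebo biopsies at week 3. Treated animal F1013 stood apart at week 3, where most of its ISGs were near the levels of placebo animals, so the differences of the interferon, cell division and other leading lists and of most named genes are given with and without it. Of the 166 genes called in the test of the difference, 4 were called without it. Whether that biopsy followed a received dose and carries its own animal's label was not tested, and every value that includes F1013 rests on both. Because the biopsies are bulk tissue, fewer cells of a type and less RNA per cell cannot be told apart.

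Both doses changed many genes in the liver. At week 0, 1594 genes were higher (10.8% of the 14754 tested) and 1504 lower (10.2%) in wIFN-α than in placebo animals (edgeR quasi-likelihood test, Benjamini-Hochberg adjusted p under 0.05 and a fold change over 1.5). At week 3, 1087 genes were higher (7.24% of 15006) and 531 lower (3.54%). Without F1013 the counts were 1555 higher (10.5%) and 1357 lower (9.15%) at week 0, and 1237 higher (8.21%) and 670 lower (4.45%) at week 3. The 2 weeks were fitted separately, and the gap between their counts is not itself a test. From week 0 to week 3, 580 genes changed in placebo animals (3.78%, 302 or 1.97% higher and 278 or 1.81% lower). In treated animals 1907 genes changed (12.4%, 884 or 5.76% higher and 1023 or 6.66% lower), and without F1013 the count was 920, with 374 higher and 546 lower. Without F1013, a treated animal, the placebo count was 711.

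The test of the difference between the weeks called 166 of 15351 genes, or 1.08% (adjusted p under 0.05). The wIFN-α effect was higher at week 3 for 97 of them (0.632%) and lower for 69 (0.449%), with adjusted p from 0.0165 to 0.0497. The called differences had a median size of 0.71 on the log2 scale and reached at most 2.21. At an unadjusted p under 0.05 the counts were 1322 higher (8.61%) and 1295 lower (8.44%). Without F1013 the test called 4 genes, 0.026% of 15400, of which 2 were higher and 2 lower (0.013% each). At an unadjusted p under 0.05 the counts were then 1117 higher (7.25%) and 1048 lower (6.81%). All 166 genes kept their sign and an unadjusted p under 0.05 without F1013, a description rather than a check, since the other 20 animals are shared by both fits.

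The called genes divided by what the first dose had done to them. Of the 97 genes with a higher effect at week 3, 66 had been lowered at week 0, with a median effect of −1.01 on the log2 scale that became −0.06 at week 3, and 3 of the 66 were still lowered at week 3. Of the 69 genes with a lower effect at week 3, 34 had been raised at week 0, with a median effect of 1.14 that became 0.43, and 12 of these were still raised. The remaining 31 and 35 genes were not called at week 0. Among the called genes, 0 that were raised at week 0 had a higher effect at week 3 and 0 that were lowered had a lower one. The week 0 biopsies enter both quantities, so this describes the genes called and tests nothing.

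**Figure D1:**
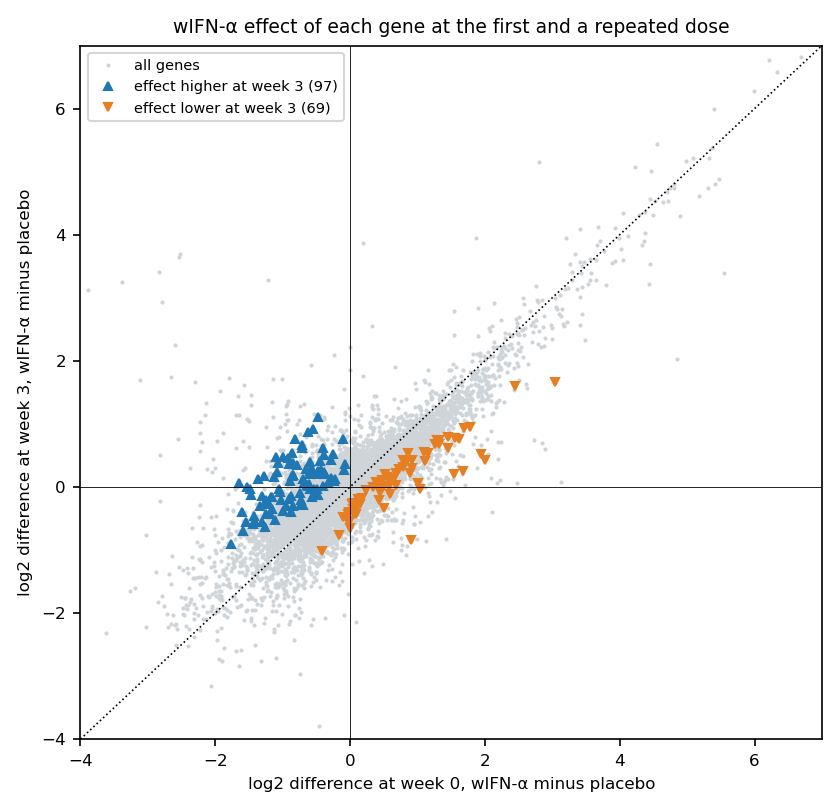
Effect of wIFN-α against placebo on each tested gene at week 0 (x axis) and at week 3 (y axis), both as log2 fold changes over 9 treated and 12 placebo animals, with genes called in the test of the difference marked. Of 165 called genes with a value at both weeks, 137 lie nearer to 0 at week 3 than at week 0, and 10 genes fall outside the axes. The genes were called on a difference that includes week 0, and the same count over all genes was not made, so the 137 test nothing.

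The count depended on single animals. Leaving out 1 animal at a time gave from 0 to 379 called genes, with 0 without treated animals F1020 or F1022, 4 without F1013, 3 without placebo animals F1015 or F1024, 5 without M1009, 11 without F1017, 14 without M1003 and 379 without placebo animal M1010. Without F1020 or F1022, 2406 and 2300 genes still had an unadjusted p under 0.05 in the same edgeR test. The 20 genes with the most extreme called values and a mean of at least 1 CPM kept their sign in all 32 alternative fits, and were called in between 8 and 26 of them. The genes were picked from the same data and the fits share most animals, so this is a description and not a check.

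**Figure D2:**
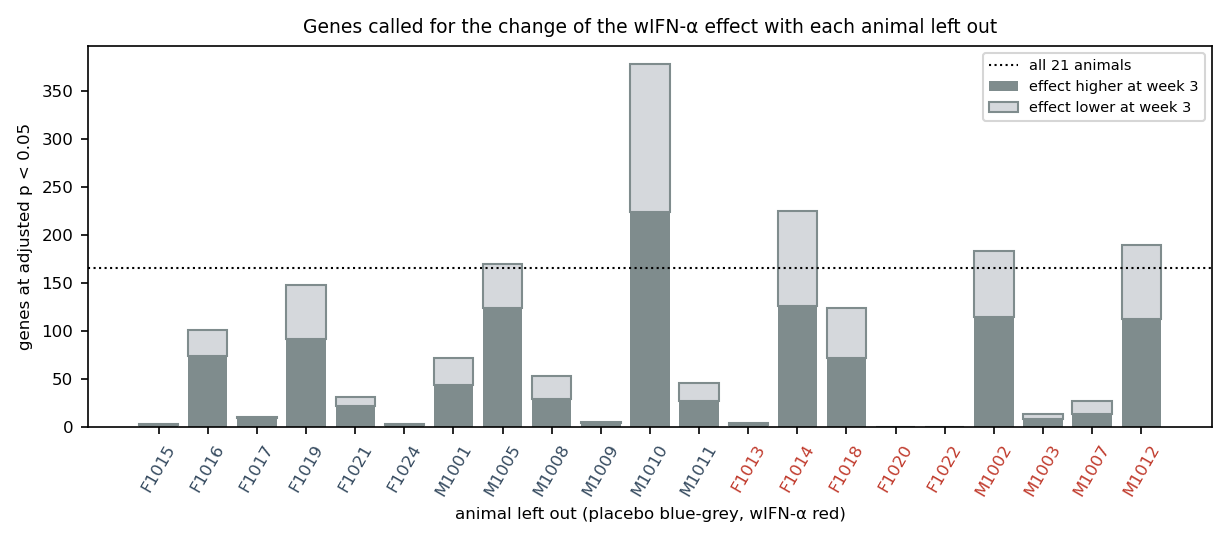
Number of genes called in the test of the difference between weeks (y axis) when each of the 21 animals (x axis) is left out of the fit, beside the count with all animals. The counts run from 0 without F1020 or F1022 to 379 without M1010.

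Type I ISGs, the direct targets of the signal, were strongly raised by both doses. The list held 53 tested genes, of which 51 were raised at week 0 (10.8% of all genes were) and 50 of 52 at week 3 (7.24% of all genes). Their median effect was 3.11 on the log2 scale at week 0 and 2.86 at week 3, or 3.15 at week 3 without F1013. None of the 53 was called in the test of the difference. At an unadjusted p under 0.05, 6 had a lower effect (8.44% of all genes) and 0 a higher one (8.61%). The median difference was −0.22, or 0.01 without F1013, against −0.01 over all genes. Without F1013, 5 had an unadjusted p under 0.05 for a lower effect (6.81% of all genes) and 4 for a higher one (7.25%), with 27 positive and 26 negative differences. DESeq2 called 1 of them for a lower effect and limma-voom 0.

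MX1, a dynamin-like GTPase that blocks virus replication, ranged in treated animals from 3738 to 6060 CPM (median 5645) at week 0 and from 689 to 7955 (median 6823) at week 3. In placebo animals it ranged from 285 to 661 (median 402) and from 175 to 754 (median 406). Only F1013, at 689 CPM, overlapped the placebo animals at week 3, and the difference between the weeks was 0.10 ± 0.36 (log2, SE, edgeR adjusted p = 0.93) or 0.40 ± 0.20 without F1013 (adjusted p = 0.39). MX1 and its neighbour MX2 are close relatives and may share reads.

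ISG15, a ubiquitin-like modifier, was lower at week 3 in 9 of 9 treated animals, from a median of 1077 CPM (709 to 1243) to 823 (2.70 to 1212). In placebo animals the medians were 15.6 and 16.5 CPM. The other treated animals were at 672 CPM or more, while F1013 at 2.70 CPM was below the lowest placebo animal at 7.56. The difference between the weeks was −0.40 ± 0.69 (edgeR adjusted p = 0.836) with all animals and −0.03 ± 0.32 without F1013 (adjusted p = 0.984). For RSAD2, which makes an antiviral nucleotide, the difference was 0.11 ± 0.51 (adjusted p = 0.95), or 0.47 ± 0.16 without F1013 (adjusted p = 0.187). For the RNA-binding protein IFIT1 it was −0.20 ± 0.44 (adjusted p = 0.876), and without F1013 it turned positive, at 0.14 ± 0.14 (adjusted p = 0.755). OAS1, which makes the messenger that activates RNase L, was higher at week 3 in 8 of 9 treated animals, from a median of 53.1 to 87.5 CPM, and its difference of 0.24 ± 0.36 was not called (adjusted p = 0.804). Without F1013 the OAS1 difference was 0.55 ± 0.15 and again not called (adjusted p = 0.0997).

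**Figure D3:**
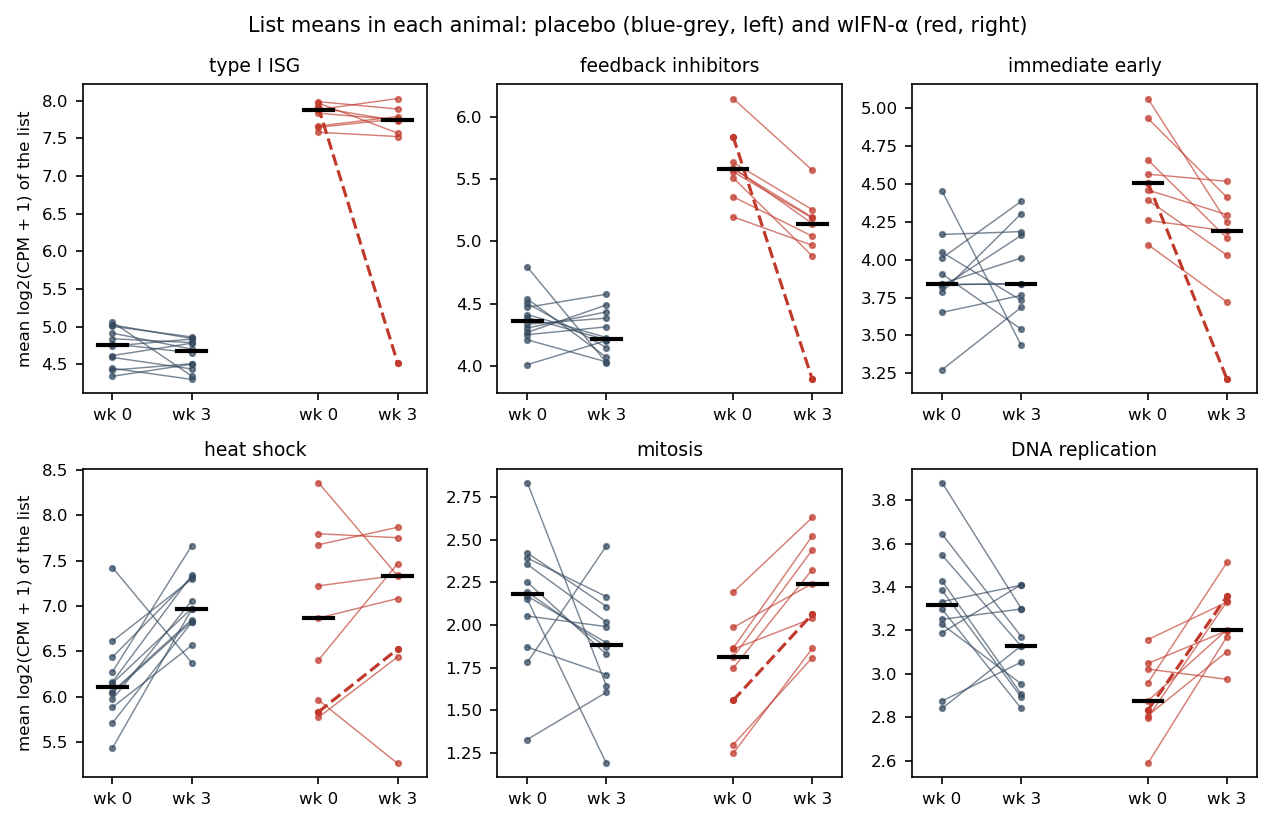
Mean log2(CPM + 1) of the genes of 6 lists (y axis) in each animal at weeks 0 and 3 (x axis), with black bars at the group medians and F1013 dashed. In the type I ISG panel F1013 drops from 7.92 to 4.52, where the medians of the treated animals are 7.88 and 7.75, and the mitosis score is higher at week 3 in all 9 treated animals.

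Of the receptor and signalling genes, STAT2 alone was called by edgeR, against 2 genes by DESeq2. The receptor chains gave 0.29 ± 0.14 for IFNAR1 (edgeR adjusted p = 0.289) and −0.22 ± 0.15 for IFNAR2 (adjusted p = 0.499). The kinases gave 0.09 ± 0.08 for JAK1 (adjusted p = 0.645) and 0.29 ± 0.12 for TYK2 (adjusted p = 0.237). IRF9 was raised by both doses, by 0.88 at week 0 and 0.60 at week 3 on the log2 scale, with a difference of −0.33 ± 0.12 (adjusted p = 0.169), or −0.21 ± 0.08 without F1013 (adjusted p = 0.226). Without F1013 the IFNAR2 difference was −0.12 ± 0.14 (adjusted p = 0.78), and those of IFNAR1, JAK1 and TYK2 were 0.24, 0.07 and 0.26, also not called.

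STAT2, part of the complex that switches on ISGs, was the 1 called of 13, against 0.449% of all genes for a lower effect. Its level ranged in treated animals from 1394 to 3243 CPM (median 1934) at week 0 and from 1193 to 2646 (median 1641) at week 3, and in placebo animals the medians were 1781 and 1988. It was lower at week 3 in 9 of 9 treated and in 3 of 12 placebo animals, and the difference was −0.30 ± 0.07 (edgeR adjusted p = 0.0478), or −0.28 ± 0.07 without F1013 (adjusted p = 0.0919). The groups overlapped at both weeks, and the first dose had not raised this entry (0.03 ± 0.22, adjusted p = 0.928).

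Feedback inhibitors had smaller effects at the repeated dose. Of 18 tested, 14 were raised at week 0 (10.8% of all genes were) and 8 at week 3 (7.24%), with median effects of 1.13 and 0.61 on the log2 scale. The median difference was −0.43 (−0.33 without F1013). For a lower effect, 8 of 18 had an unadjusted p under 0.05 (8.44% of all genes) and 1 was called (0.449%). Without F1013, 9 were raised at week 3 (8.21% of all genes). At an unadjusted p under 0.05, 5 then had a lower effect (6.81%) and 1 a higher one (7.25%), and 0 were called. The score of the list was lower at week 3 in 9 of 9 treated animals and in 6 of 12 placebo animals.

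SOCS1, the inhibitor of the JAK kinases, was the called member. It ranged in treated animals from 7.46 to 24.0 CPM (median 13.1) at week 0 and from 4.97 to 13.5 (median 7.48) at week 3, and in placebo animals from 3.93 to 5.89 (median 4.68) and from 4.26 to 5.85 (median 4.79). All treated animals were above all placebo animals at week 0, and at week 3 F1013 was within their range. Its effect was 1.45 ± 0.15 at week 0 and 0.78 ± 0.13 at week 3, with a difference of −0.65 ± 0.15 (edgeR adjusted p = 0.0445), or −0.54 ± 0.13 without F1013 (adjusted p = 0.0811). It was called in 11 of 32 alternative fits, always with a negative sign.

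Other inhibitors did not pass the adjusted threshold. DESeq2 called 3 members of the list and limma-voom 2. TNFAIP3, which edits ubiquitin chains to curb NF-κB signalling, had a median of 37.6 CPM in treated animals at week 0 and 21.3 at week 3, and its effect was 2.19 at week 0 and 0.71 at week 3 (difference −1.29 ± 0.36, edgeR adjusted p = 0.0726). ZFP36, which destabilises cytokine mRNAs, was lower at week 3 in 9 of 9 treated animals, from a median of 234 to 142 CPM (difference −0.98 ± 0.26, adjusted p = 0.0609). USP18, the inhibitor at the receptor and itself an ISG, had medians of 255 and 284 CPM in treated animals and of 6.67 and 5.34 in placebo animals. Its difference was 0.41 ± 0.57 (adjusted p = 0.784), or 0.77 ± 0.25 without F1013 (adjusted p = 0.161), and F1013 at 2.70 CPM was again within the placebo range at week 3. SOCS3, induced mainly by STAT3, had a difference of −0.55 ± 0.40 (adjusted p = 0.537), or −0.33 ± 0.37 without F1013 (adjusted p = 0.785). Without F1013 the differences of TNFAIP3 and ZFP36 were −1.07 ± 0.33 (adjusted p = 0.142) and −0.76 ± 0.17 (adjusted p = 0.0694).

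**Figure D4:**
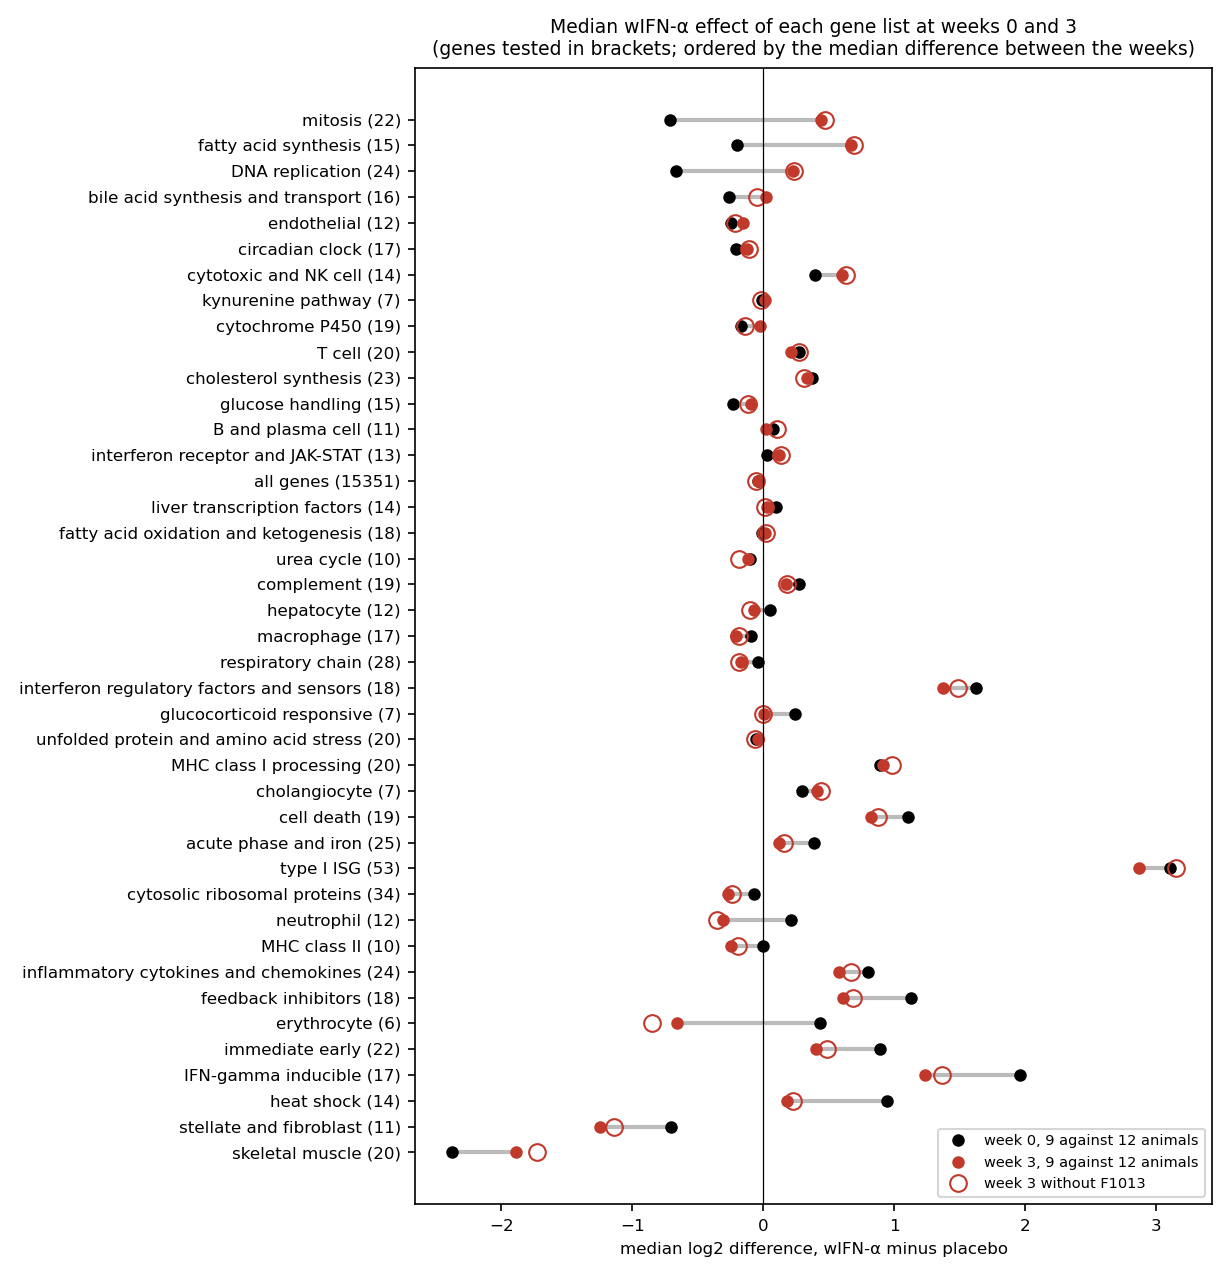
Median log2 wIFN-α effect of each gene list at week 0, at week 3 and at week 3 without F1013 (x axis), with 1 line per list (y axis). The type I ISG list stays near 3 at both weeks, the feedback inhibitor, immediate early and heat shock lists lie closer to 0 at week 3, and the mitosis and DNA replication lists pass from below 0 to above 0.

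Genes usually linked to interferon-γ were raised by both doses. Of 17 tested, 13 were raised at week 0 (10.8% of all genes were) and 11 at week 3 (7.24%), with median effects of 1.96 and 1.24 on the log2 scale. The median difference was −0.56, or −0.30 without F1013, and 2 members were called for a lower effect, against 0.449% of all genes. Without F1013, 13 were raised at each week (10.5% and 8.21% of all genes) and 0 were called in the test of the difference. WARS, a tryptophanyl-tRNA synthetase, was lower at week 3 in 8 of 9 treated animals, with medians of 69.4 and 48.6 CPM against 31.9 and 31.1 in placebo animals. Its difference was −0.56 ± 0.14 (edgeR adjusted p = 0.0478), or −0.48 ± 0.14 without F1013 (adjusted p = 0.114).

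PLA2G2A, a secreted phospholipase, had the lowest value of all called genes with at least 1 CPM. It ranged in treated animals from 8.00 to 36.9 CPM (median 15.1) at week 0 and from 1.31 to 21.6 (median 10.3) at week 3, and in placebo animals from 0.749 to 23.5 (median 7.42) and from 1.30 to 54.8 (median 14.4). The groups overlapped at both weeks, while within animals it was lower at week 3 in 9 of 9 treated and higher in 9 of 12 placebo animals. The difference was −1.81 ± 0.43 (edgeR adjusted p = 0.0454), or −1.59 ± 0.39 without F1013 (adjusted p = 0.0828), and neither week alone passed (0.91 ± 0.45, adjusted p = 0.118 at week 0).

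CXCL10, which draws T cells through CXCR3, ranged in treated animals from 1103 to 3645 CPM (median 2304) at week 0 and from 26.4 to 2538 (median 2140) at week 3. In placebo animals it ranged from 5.61 to 128 (median 39.7) and from 9.55 to 130 (median 38.7). F1013 went from 2517 to 26.4 CPM, within the placebo range, while the other treated animals were at 742 CPM or more at week 3. Its difference was −0.37 ± 0.54 (edgeR adjusted p = 0.796) or −0.01 ± 0.22 without F1013 (adjusted p = 0.994). Of the same family, CXCL9 gave −0.58 ± 0.34 (adjusted p = 0.412) and CXCL11 −0.68 ± 0.39 (adjusted p = 0.404). IDO1, which breaks down tryptophan, gave −0.92 ± 0.50 (adjusted p = 0.364), and the checkpoint ligand CD274 gave −0.72 ± 0.25 (adjusted p = 0.134). IRF1, a transcription factor shared by both interferon types, was lower at week 3 in 8 of 9 treated animals (medians 171 and 82.1 CPM), with a difference of −0.63 ± 0.25 (adjusted p = 0.201). Without F1013 these values were −0.38 for CXCL9, −0.41 for CXCL11, −0.60 for IDO1, −0.57 for CD274 and −0.43 for IRF1, with adjusted p from 0.245 to 0.668.

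Outside the lists, RIPK2, the kinase that carries NOD receptor signals to NF-κB, ranged in treated animals from 84.1 to 219 CPM (median 143) at week 0 and from 29.8 to 84.7 (median 76.5) at week 3, and in placebo animals from 21.1 to 43.7 (median 24.2) and from 17.3 to 30.9 (median 21.1). At week 0 no treated animal overlapped the placebo group, and at week 3 F1013 at 29.8 CPM was the 1 animal that did. Its effect was 2.45 ± 0.17 and then 1.60 ± 0.15, a difference of −0.84 ± 0.20 (edgeR adjusted p = 0.0441), or −0.66 ± 0.14 without F1013 (adjusted p = 0.0694). Outside the naming rule and chosen after their values were seen, the inhibitors of apoptosis BIRC3 (−0.78 ± 0.18, adjusted p = 0.0398) and BIRC2 (−0.58 ± 0.13, adjusted p = 0.0419) were also called for a lower effect, and gave −0.64 and −0.48 without F1013, where neither was called.

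Cell division genes showed the reverse pattern. The first dose lowered 9 of 22 mitosis genes (10.2% of all genes) and raised none (10.8%). The repeated dose raised 2 (7.24% of all genes) and lowered none (3.54%). The median effect was −0.72 on the log2 scale at week 0 and 0.44 at week 3. The median difference was 1.17 with and without F1013. For a higher effect, 8 of 22 were called (0.632% of all genes) and 20 of 22 had an unadjusted p under 0.05 (8.61%). The 1 member with a lower effect at an unadjusted p under 0.05 was NUSAP1, a spindle protein (−0.26 ± 0.12, edgeR adjusted p = 0.284), and without F1013 no member had one. The number of called members was not stable across the 32 alternative fits, running from 0, as without F1013 or without the block on animal, to 16 with DESeq2. Across the same fits the median of the list stayed between 1.04 and 1.35, with 19 to 21 members at an unadjusted p under 0.05. The score of the list was higher at week 3 in 9 of 9 treated animals and lower in 10 of 12 placebo animals, a median change of 0.51 and −0.29.

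TOP2A, the topoisomerase that untangles replicated DNA, ranged in treated animals from 2.07 to 9.28 CPM (median 5.32) at week 0 and from 5.33 to 12.95 (median 10.1) at week 3. In placebo animals it ranged from 2.89 to 19.6 (median 12.4) and from 2.24 to 13.4 (median 7.04). The groups overlapped at both weeks, and treated animals were the lower group at week 0 and placebo animals at week 3. Its effect was −1.07 ± 0.26 at week 0 and 0.38 ± 0.27 at week 3, with a difference of 1.54 ± 0.33 (edgeR adjusted p = 0.0381), or 1.49 ± 0.35 without F1013 (adjusted p = 0.0719).

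CCNB1, the cyclin that drives entry into mitosis, had medians of 1.82 and 3.25 CPM in treated animals and of 3.69 and 2.36 in placebo animals, and a difference of 1.39 ± 0.31 (edgeR adjusted p = 0.0398). Its partner kinase CDK1 was higher at week 3 in 9 of 9 treated animals (medians 2.85 and 4.34 CPM) and lower in 9 of 12 placebo animals (3.73 and 2.31), a difference of 1.48 ± 0.36 (adjusted p = 0.0476). CDK1 was raised at week 3 itself, by 0.91 ± 0.23 (adjusted p = 0.00837), and was not called at week 0 (−0.54 ± 0.29, adjusted p = 0.153). CENPF, a kinetochore protein, gave 1.60 ± 0.33 (adjusted p = 0.0381), and CCNB2, a second B-type cyclin, gave 1.48 ± 0.31 (adjusted p = 0.0381). ZWILCH, part of the complex that checks chromosome attachment, gave 1.55 ± 0.28 (adjusted p = 0.0261) at levels of 1.07 and 1.70 CPM in treated animals. The cell cycle genes CDCA3 (1.67 ± 0.41, adjusted p = 0.0481) and CDCA5 (1.41 ± 0.33, adjusted p = 0.0445) and the histone chaperone ASF1B (1.44 ± 0.33, adjusted p = 0.0426) were among the 10 highest, as was GPRIN2 (1.41 ± 0.35, adjusted p = 0.0481), whose levels were 2.14 and 3.89 CPM. These genes were expressed at low levels, with CDCA3 at a median of 0.53 CPM in treated animals at week 0. Without F1013 the differences of CCNB1 and of the other genes of this paragraph ran from 1.32 for GPRIN2 to 1.60 for CENPF, with adjusted p from 0.0662 to 0.104, and 0 of them were called.

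DNA replication genes had higher effects at week 3. Of 24 tested, 13 were lowered at week 0 (10.2% of all genes were) and 0 at week 3 (3.54%), with median effects of −0.67 and 0.23, and 5 were called for a higher effect (0.632% of all genes), from 0 to 12 across the alternative fits. The median difference was 0.75, or 0.77 without F1013. CHAF1A, which places histones on new DNA, was lower in treated animals at week 0 (1.89 against 3.87 CPM) and not at week 3 (4.03 against 3.37), a difference of 1.35 ± 0.29 (edgeR adjusted p = 0.0381). CDT1, a licensing factor of replication origins, gave 1.37 ± 0.30 (adjusted p = 0.0388), the DNA polymerase POLE 1.07 ± 0.23 (adjusted p = 0.0381) and the helicase subunit MCM7 0.80 ± 0.17 (adjusted p = 0.0381). At an unadjusted p under 0.05, 17 of 24 were higher, against 8.61% of all genes, with 16 to 19 across the alternative fits. Without F1013, 11 were lowered at week 0 (9.15% of all genes) and 0 were called in the test of the difference. CHAF1A, CDT1, POLE and MCM7 then gave 1.38, 1.31, 1.03 and 0.79, with edgeR adjusted p from 0.0694 to 0.076.

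Part of the cell division pattern lay in the placebo group. The mitosis genes had a median change from week 0 to week 3 of −0.40 on the log2 scale in placebo animals, with 0 of 22 called, and of 0.78 in treated animals, with 15 of 22 called, against 5.76% of all genes. Without F1013 the treated median was 0.77, with 4 of 22 called, against 374 of all 15400 genes called higher. For DNA replication genes the medians were −0.31 and 0.49. In treated animals 9 of 24 were called higher (5.76% of all genes), or 5 of 24 without F1013 (374 of all 15400 genes). The median share of skeletal muscle reads was also higher in placebo animals at week 3 than at week 0. With that share as a covariate the median difference was 1.15 for mitosis genes, with 9 called, and 0.75 for DNA replication genes, with 6 called. The share itself differed between the groups, and its part in the pattern was not tested.

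**Figure D5:**
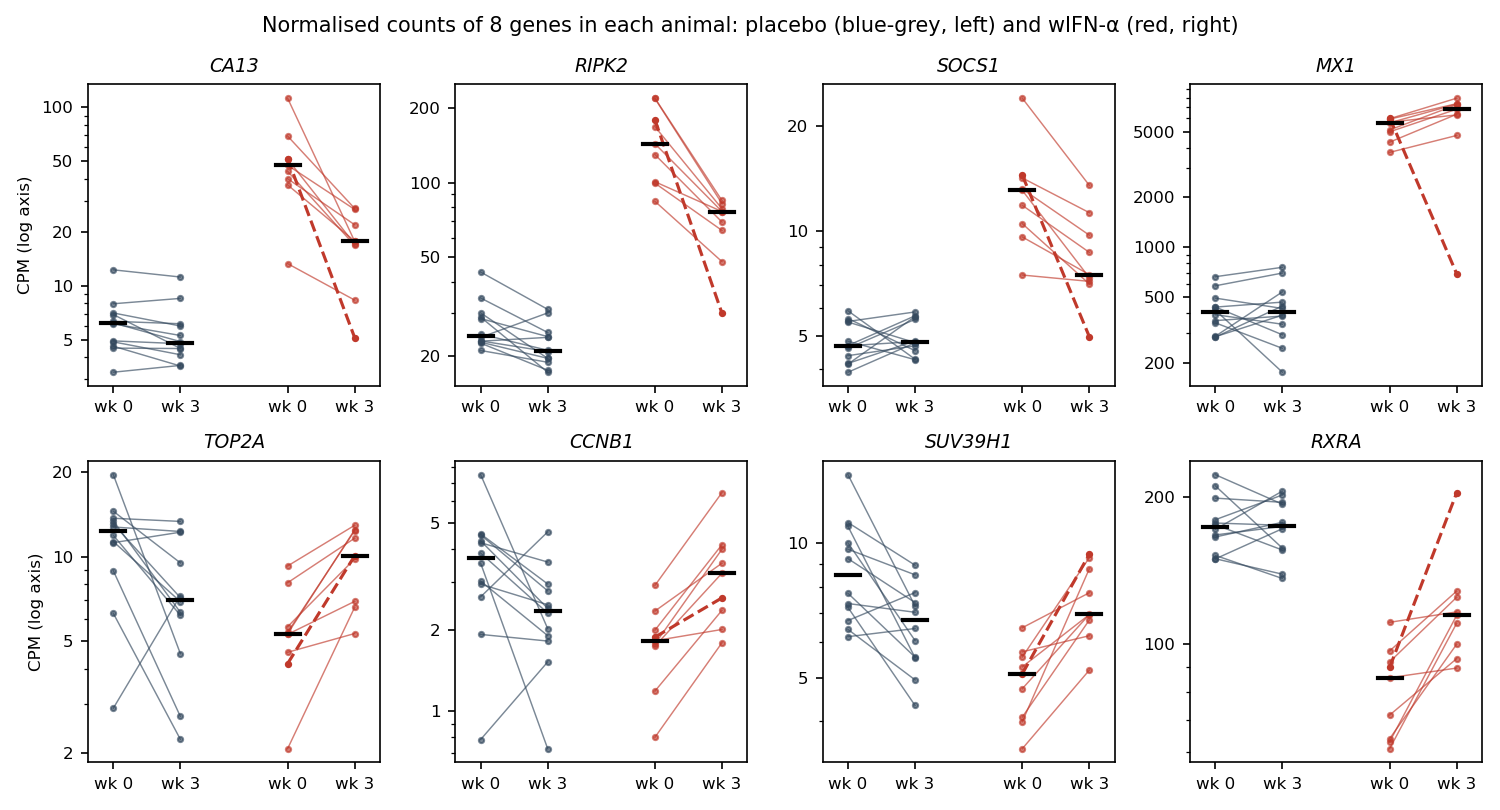
Level of CA13, RIPK2, SOCS1, MX1, TOP2A, CCNB1, SUV39H1 and RXRA in each animal at weeks 0 and 3, as CPM on a log axis (y axis), with wIFN-α and placebo animals apart. CA13, RIPK2 and SOCS1 are lower at week 3 in 9 of 9 treated animals, and TOP2A, CCNB1, SUV39H1 and RXRA are higher in 9 of 9.

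CA13, a cytosolic carbonic anhydrase, was 1 of the 4 genes called without F1013. It ranged in treated animals from 13.4 to 113 CPM (median 47.5) at week 0 and from 5.15 to 27.2 (median 17.8) at week 3, and in placebo animals from 3.29 to 12.3 (median 6.18) and from 3.57 to 11.2 (median 4.82). The groups were apart at week 0, and at week 3 the lower end of the treated group, F1013 at 5.15 CPM and M1002 at 8.35 CPM, lay within the placebo range. Its effect fell from 3.04 ± 0.27 to 1.67 ± 0.26, a difference of −1.32 ± 0.26 (edgeR adjusted p = 0.0313), or −1.12 ± 0.19 without F1013 (adjusted p = 0.0403).

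The other 3 genes called without F1013 had the lowest adjusted p with all animals, 0.0165 in the edgeR test. SUV39H1, a histone methyltransferase of silent chromatin, was higher at week 3 in 9 of 9 treated animals (medians 5.11 and 6.93 CPM) and lower in 10 of 12 placebo animals (8.49 and 6.73), a difference of 1.00 ± 0.16, or 0.97 ± 0.16 without F1013. SULT1B1, a sulfotransferase of liver and gut, was also higher in 9 of 9 treated animals (8.40 and 14.7 CPM), with 16.7 and 16.3 CPM in placebo animals and a difference of 1.05 ± 0.17. The zinc finger gene ZNF766 was lower at week 3 in 9 of 9 treated animals (97.3 and 83.0 CPM) and higher in 10 of 12 placebo animals (60.8 and 80.3), a difference of −0.69 ± 0.11. All 3 had an adjusted p of 0.0403 without F1013, and were called in 29, 27 and 27 of 32 alternative fits.

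The rest of the 10 lowest called genes had been raised by the first dose. CSRP2, a LIM domain protein, had medians of 9.70 and 5.54 CPM in treated animals and of 2.91 and 4.34 in placebo animals, a difference of −1.63 ± 0.36 (edgeR adjusted p = 0.039). SPSB1, a substrate adaptor of a ubiquitin ligase, gave −1.14 ± 0.25 (adjusted p = 0.0398), with an effect of 1.54 at week 0 and 0.20 at week 3. RAB20, a small GTPase of endosomes, gave −0.80 ± 0.18 (adjusted p = 0.0398), and PHF1, a partner of the Polycomb complex, gave −0.83 ± 0.20 (adjusted p = 0.0481). The little studied genes C21orf63 and CCDC117 gave −0.98 ± 0.21 (adjusted p = 0.039) and −0.85 ± 0.18 (adjusted p = 0.0381), and the small nucleolar RNA SNORA31 gave −0.93 ± 0.20 (adjusted p = 0.0381). Without F1013 the 7 genes of this paragraph kept differences from −0.66 for RAB20 to −1.48 for CSRP2, with adjusted p from 0.0694 to 0.0881, and 0 were called.

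Immediate early genes also had smaller effects at week 3, with 0 called by edgeR or limma-voom and 3 by DESeq2. Of 22 immediate early genes, 14 were raised at week 0 (10.8% of all genes were) and 3 at week 3 (7.24%). Without F1013, 8 were raised at week 3 (8.21%). The median difference was −0.52, or −0.35 without F1013. At an unadjusted p under 0.05, 9 had a lower effect against 8.44% of all genes, or 6 without F1013 against 6.81%. IER3, a survival gene, was the closest to the threshold (−0.77 ± 0.20, edgeR adjusted p = 0.0552). FOS, a subunit of AP-1, had medians of 52.3 and 25.9 CPM in treated animals, against 50.74 and 37.55 in placebo animals. Its treated median was therefore near the placebo median at week 0 and below it at week 3. The FOS difference was −1.27 ± 0.42 (edgeR adjusted p = 0.121). Without F1013 the differences were −0.72 ± 0.20 for IER3 (adjusted p = 0.112) and −1.11 ± 0.42 for FOS (adjusted p = 0.231).

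Heat shock genes had smaller effects at week 3, with 0 called by edgeR and 4 by DESeq2. Of 14 tested, 8 were raised at week 0 (10.8% of all genes were) and 0 at week 3 (7.24%), with and without F1013, and the median difference was −0.62 (−0.64 without F1013). At an unadjusted p under 0.05, 9 had a lower effect against 8.44% of all genes, with 3 to 11 across the alternative fits. In placebo animals the list had a median change of 0.64 from week 0 to week 3, and 6 of 14 were called higher, against 1.97% of all genes, while in treated animals the median change was 0.08. HSPA1A, an inducible HSP70 chaperone, had medians of 191 and 199 CPM in treated animals and of 27.7 and 168 in placebo animals, with a difference of −2.17 ± 0.72 (edgeR adjusted p = 0.125). Reads of HSPA1A and its near-identical copy HSPA1B cannot be told apart with certainty. FKBP5, a glucocorticoid-induced co-chaperone, was higher at week 3 in 11 of 12 placebo animals (31.2 and 38.6 CPM) and gave −0.70 ± 0.21 (adjusted p = 0.0906). Without F1013 the values were −2.46 ± 0.71 for HSPA1A (adjusted p = 0.119) and −0.69 ± 0.22 for FKBP5 (adjusted p = 0.155).

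Among metabolic genes, RXRA, the partner of many nuclear receptors, was called for a higher effect. It ranged in treated animals from 61.1 to 111 CPM (median 85.4) at week 0 and from 89.4 to 204 (median 115) at week 3, and in placebo animals from 150 to 223 (median 174) and from 136 to 206 (median 175). No treated animal reached the placebo range at week 0. At week 3 only F1013, at 204 CPM, lay within the placebo range, and the other treated animals were at 128.5 CPM or less. Its effect was −1.12 ± 0.11 and then −0.53 ± 0.13, a difference of 0.57 ± 0.13 (edgeR adjusted p = 0.0398), or 0.49 ± 0.12 without F1013 (adjusted p = 0.0719), so it remained lowered at week 3 (adjusted p = 0.00565). It was the 1 gene called of 14 liver transcription factors, against 0.632% of all genes for a higher effect.

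All 15 fatty acid synthesis genes had a positive difference, with a median of 0.80, or 0.69 without F1013. For a higher effect, 2 of 15 had an unadjusted p under 0.05 (8.61% of all genes) and 1 was called (0.632%). These counts were 1 (7.25%) and 0 (0.013%) without F1013. The list score changed by 0.913 ± 1.082 (mean and SD) in treated and by 0.161 ± 1.095 in placebo animals, so animals varied widely. FADS1, a fatty acid desaturase, was the 1 gene called (0.98 ± 0.24, edgeR adjusted p = 0.0476), with medians of 18.0 and 26.3 CPM in treated and of 40.2 and 31.4 in placebo animals. SREBF1, a transcription factor of lipid synthesis, had a wide spread and gave 1.29 ± 0.60 (adjusted p = 0.281). EHHADH, a peroxisomal enzyme of fatty acid oxidation, was lower at week 3 in 8 of 9 treated and higher in 12 of 12 placebo animals, with medians of 1280 and 1083 CPM against 1555 and 1791, a difference of −0.34 ± 0.08 (adjusted p = 0.0454). Among acute phase and iron genes, 0 of 25 were called by edgeR and 2 by DESeq2, and 7 had an unadjusted p under 0.05 for a lower effect, against 8.44% of all genes. The copper carrier CP was lower at week 3 in 9 of 9 treated animals (1798 and 988 CPM) and gave −0.58 ± 0.16 (adjusted p = 0.0746). Without F1013 the differences of FADS1, SREBF1, EHHADH and CP were 1.03, 1.30, −0.36 and −0.55, with adjusted p from 0.0779 to 0.379, and 0 were called.

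For cytosolic ribosomal protein genes the differences were small and mostly negative. Of 34 tested, 33 had a negative difference, 21 had an unadjusted p under 0.05 against 8.44% of all genes (14 without F1013, against 6.81%), 0 were called by edgeR and 6 by DESeq2, and the median was −0.23, or −0.20 without F1013. The count at an unadjusted p under 0.05 ran from 2 to 27 across the alternative fits, with 2 without the block on animal and 4 with lane as a covariate.

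No immune cell marker was called by edgeR, DESeq2 or limma-voom. The median difference was 0.02 for 20 T cell genes, 0.09 for 14 cytotoxic and NK cell genes, −0.01 for 11 B and plasma cell genes, −0.12 for 17 macrophage genes and −0.26 for 12 neutrophil genes. At an unadjusted p under 0.05, 1 NK cell gene had a higher effect (8.61% of all genes), and 1 macrophage and 2 neutrophil genes had a lower one (8.44%). Antigen processing genes of MHC class I were raised by both doses, 15 of 20 at week 0 (10.8% of all genes were) and 13 of 20 at week 3 (7.24%). Their median difference was −0.17, with 0 called. Without F1013, 14 of 20 were raised at each week (10.5% and 8.21% of all genes) and the median difference was −0.02. For 12 hepatocyte markers the median difference was −0.06 with 0 called. The 20 skeletal muscle genes all had a negative difference, with a median of −1.19 (−1.06 without F1013) and 0 called, and stellate cell and fibroblast genes had a median of −0.66 (−0.55). In placebo animals these 2 lists had median changes of 2.75 and 1.08.

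No difference in viral RNA between the groups was detected. WHV reads, scaled as CPM of gene reads, had medians of 24910 and 19940 in treated animals at weeks 0 and 3, and of 24930 and 21920 in placebo animals. The mean change per animal was −0.35 ± 0.48 on the log2 scale (SD, n = 9) with wIFN-α and −0.17 ± 0.48 (SD, n = 12) with placebo, lower at week 3 in 8 of 9 and in 8 of 12 animals. The difference between the means was −0.18, and an exact two-sided permutation test over 293930 splits gave p = 0.404, or p = 0.337 without F1013, for a difference of −0.22.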

How the data were processed

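Poly(A) RNA of woodchuck liver was sequenced as paired 50-nucleotide reads. Per the labels and methods, the authors mapped reads with Bowtie2 to their woodchuck transcriptome, assembled in part from the same animals and named by homology to human, mouse and rat transcripts, and deposited expected counts and RPKM values per gene and run. Related genes may therefore share reads. Expected counts (118 entries were fractions) were rounded and runs of 1 biopsy summed. RPKM was used only to check the counts. Runs of 1 compared biopsy differed by a chi-square per degree of freedom of 1.41 to 4.60, against 45.2 to 714 between animals. Columns without a sample numbered 0.

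Genes passing edgeR's low-count filter were tested with edgeR 4.0.16 (R 4.3.3, quasi-likelihood, TMM), with animal as a block for the changes and the difference between weeks. Each week's effect had its own fit. DESeq2 1.42.0 and limma 3.58.1 were alternatives, beside other scaling, filters, covariates and animals left out. The scripts were tested on simulated data. Biopsies were paired because they come from the same animal. Their deviations from the group mean correlated at a median of 0.37 (−0.55 to 0.76), with 14 of 21 animals over 0.1. Between other animals of a group the median was −0.05 (−0.70 to 0.67), with 74 of 204 pairs over 0.1. The genes named were the 10 highest and 10 lowest called with at least 1 CPM (with and without F1013), fixed signalling genes, and up to 4 of each list with the lowest p, from 41 lists. Members and lists were chosen with earlier results of these data known.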

Additional observations from a re-analysis of the deposited data

Results flagged for a closer look

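In 63 tests of a single animal standing apart from its group of 9 treated animals, 14 passed the limit (Dixon's 95% limit on the gap to the nearest animal as a share of the group's range), and chance alone flags about 1 in 20 such groups. Of the 14, F1013 gave 11, all as the lowest animal. At week 3 its gap was 0.856 of the range for the type I ISG score, 0.579 for interferon receptor and JAK-STAT genes, 0.589 for feedback inhibitors, 0.816 for interferon-γ inducible genes and 0.542 for inflammatory cytokines and chemokines. For the change from week 0 to week 3 its gap was 0.846 for type I ISGs, 0.518 for receptor and JAK-STAT genes, 0.766 for feedback inhibitors, 0.763 for interferon-γ inducible genes, 0.56 for RAB20 and 0.535 for RIPK2. These 11 concern the same animal and related genes, so they are not separate observations. F1014 was the highest animal at week 0 for inflammatory cytokines and chemokines (0.58), M1007 was the highest at week 0 for skeletal muscle genes (0.883), and F1020 had the highest change of ASF1B (0.596). What sets these animals apart, including whether the week 3 biopsy of F1013 followed a received dose and carries its own label, was not tested.

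The wIFN-α effect differed between the weeks by a test of the difference itself for 97 genes in the higher and 69 in the lower direction with all 21 animals, and for 2 and 2 without F1013.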

How the results depend on the processing

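No called gene named by the rule took the opposite sign in any alternative run (BIRC2 and BIRC3, outside the rule, were not followed). These genes were picked from the same data, so this describes them and is not a check. With RLE scaling the median difference was −0.22 for type I ISGs and 1.17 for mitosis genes, as in the main fit. Without F1013 it went from −0.22 to 0.01 for type I ISGs and from −0.56 to −0.30 for interferon-γ inducible genes. For cell death genes it went from −0.188 to 0.035, and for mitosis genes it stayed at 1.17. Of the 166 genes called in the difference between weeks, 106 also had a fold change over 1.5. The count was 30 without the replicate block (59 without the block over all animals), 641 with DESeq2, 0 with lane as a covariate (2008 at an unadjusted p under 0.05), 266 with the muscle share as a covariate, 281 with animal 1004 included and 585 at an adjusted p under 0.1, chosen after seeing the data. Leaving out 1 animal gave 0 to 379. Without F1013, where 4 genes were called, the count was 0 without the replicate block, 0 without a filter on low counts (2358 at an unadjusted p under 0.05), 338 with DESeq2, 16 with limma-voom, 0 with lane, 13 with the muscle share, 131 with animal 1004, 213 at an adjusted p under 0.1, and 0 to 106 with 1 animal left out. The placebo change (580 genes) gave 0 without the replicate block, 1411 with DESeq2 and 132 to 1355 with 1 animal left out. The wIFN-α change (1907 genes) gave 538 without the block and 920 to 1829 with 1 animal left out. The cause of these shifts was not tested. The shallowest biopsy had 12962032 gene reads, which limits the precision of genes near 1 CPM.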

Other observations

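Values are given here for some of the lists not described above. For 17 circadian clock genes the median difference between the weeks was 0.11, with 0 called in the test of the difference by edgeR against 1 by DESeq2. From week 0 to week 3, 5 of 17 were called higher in placebo animals (1.97% of all genes) and 5 of 17 in treated animals (5.76%). Cytochrome P450 genes (median 0.06, 19 tested), cholesterol synthesis genes (0.00, 23 tested) and urea cycle genes (−0.03, 10 tested) had 0 called by either tool. At an unadjusted p under 0.05, 1, 0 and 0 of them had a higher effect (8.61% of all genes) and 0 a lower one (8.44%). Of 28 respiratory chain genes, 27 had a negative difference, with a median of −0.14. For a lower effect, 4 had an unadjusted p under 0.05 (8.44% of all genes), and 0 were called by edgeR or DESeq2. MHC class II genes, which present antigen to helper T cells, were not called at either week. Of these, 9 of 10 had a negative difference, with a median of −0.31. For a lower effect, 4 had an unadjusted p under 0.05 (8.44% of all genes).

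Genes of the skin list, keratins and desmosome proteins among them, had a median wIFN-α effect of −3.64 at week 0 and of 3.24 at week 3. At week 0, 5 of 6 were lower (10.2% of all genes), and at week 3, 3 of 5 were higher (7.24%). In the test of the difference, 0 of 6 were called. The median skin scores were 1.68 in treated and 1.77 in placebo animals at week 0, and 1.59 and 1.66 at week 3. The effects therefore rest on biopsies with high scores and not on the typical animal. The highest skin score at week 3 was that of treated animal M1012 (8.25 as mean log2(CPM + 1)), and at week 0 that of placebo animal M1008 (7.64). What these reads come from was not tested.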
